A study of Mus musculus with 13 samples.

Results

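The genes described here serve protein folding in the endoplasmic reticulum (ER), the compartment where secreted and membrane proteins fold, and the unfolded protein response that adjusts it. They were chosen by name, with earlier results of these data known, as 38 genes in 5 roles. Each was read from the probe set that names it alone, taking the brightest where a gene had several. Of these, 37 were measured among 22180 genes, namely 11 chaperones and their partners, 6 disulfide enzymes, 6 sensors and transducers, 11 genes of ER-associated degradation (ERAD) and 3 genes of translocation into the ER. Pdia4 was named only by a probe set that names several genes and was left out. Ero1l, Ero1lb and Selk were measured under their current symbols Ero1a, Ero1b and Selenok.

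RNA came from the S1 segment of the kidney, the first stretch of the proximal tubule, of male C57Bl/6J mice, hybridised to 13 arrays, 1 for each sample. Saline was given to the control mice (4 arrays), which the labels call sham. A single injection of 5 mg/kg of lipopolysaccharide (LPS, the endotoxin of Gram-negative bacteria, serotype 0111:B4) into the peritoneum, studied after 24 h, defined the LPS group (4 arrays). The LPS/LPS group (5 arrays) was given 0.25 mg/kg first and the 5 mg/kg challenge 24 h later, a schedule called preconditioning. This group was also studied 24 h after the challenge. The sample labels give the first dose as 5 ug and the challenge as 100 ug. The 3 groups share strain and sex, and neither age nor the way the segments were isolated is given in the sources used here. Whether the arrays stem from different animals is not stated, so every p-value refers to the spread among these samples, which may be technical.

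When unfolded proteins accumulate in the ER, the membrane sensors IRE1 (gene Ern1), PERK (Eif2ak3) and ATF6 are activated. IRE1 splices the Xbp1 transcript, ATF6 is released by the Golgi proteases encoded by Mbtps1 and Mbtps2, and PERK slows translation and favours ATF4. Of the resulting transcription factors, ATF6 and XBP1 bind ER stress response elements in promoters of chaperones, disulfide enzymes and ERAD genes. Proximal tubule cells keep a busy secretory and endocytic pathway, because receptors and transporters of the brush border pass through the ER.

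The element is visible in the promoters themselves. The 6 stretches shown belong to the members that were lower in LPS/LPS than in LPS at an unadjusted p under 0.05 and hold a match to such an element. Each is the 220 bases before the annotated gene start, 5′ to 3′ on the gene's strand, from RefSeq on GRCm38.p6, and capitals mark a match on either strand to the ER stress response element (ERSE, CCAAT and CCACG with any 9 bases between them) or, in Herpud1, to ERSE-II (ATTGG and CCACG with any 1 base between them). The positions are chr2:34771870-34772089, plus strand for Hspa5, chr10:86705445-86705664, minus strand for Hsp90b1, chr14:118937712-118937931, plus strand for Dnajc3, chr11:50325674-50325893, minus strand for Canx, chr12:17266369-17266588, plus strand for Pdia6 and chr8:94386209-94386428, plus strand for Herpud1.
Hspa5: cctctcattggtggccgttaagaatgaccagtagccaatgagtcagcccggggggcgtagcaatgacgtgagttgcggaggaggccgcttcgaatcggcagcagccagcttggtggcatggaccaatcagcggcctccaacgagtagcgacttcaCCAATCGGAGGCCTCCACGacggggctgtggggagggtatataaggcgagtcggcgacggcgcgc
Hsp90b1: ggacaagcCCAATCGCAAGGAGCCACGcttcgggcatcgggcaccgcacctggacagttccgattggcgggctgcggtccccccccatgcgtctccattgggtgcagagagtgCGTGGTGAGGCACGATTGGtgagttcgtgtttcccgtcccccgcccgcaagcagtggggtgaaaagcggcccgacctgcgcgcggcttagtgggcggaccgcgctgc
Dnajc3: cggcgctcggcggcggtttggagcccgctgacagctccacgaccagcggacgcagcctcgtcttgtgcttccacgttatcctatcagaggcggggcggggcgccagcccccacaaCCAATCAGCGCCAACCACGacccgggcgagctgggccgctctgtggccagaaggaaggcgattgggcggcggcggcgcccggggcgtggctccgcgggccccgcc
Canx: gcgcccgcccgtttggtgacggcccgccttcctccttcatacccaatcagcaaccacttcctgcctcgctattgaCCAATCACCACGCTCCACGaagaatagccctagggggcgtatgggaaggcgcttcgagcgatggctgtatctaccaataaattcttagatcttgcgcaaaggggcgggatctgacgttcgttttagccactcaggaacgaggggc
Pdia6: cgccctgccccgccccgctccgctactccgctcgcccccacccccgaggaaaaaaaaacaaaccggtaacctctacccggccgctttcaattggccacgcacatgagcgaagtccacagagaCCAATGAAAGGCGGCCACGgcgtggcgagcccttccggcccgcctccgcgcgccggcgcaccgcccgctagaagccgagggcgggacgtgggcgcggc
Herpud1: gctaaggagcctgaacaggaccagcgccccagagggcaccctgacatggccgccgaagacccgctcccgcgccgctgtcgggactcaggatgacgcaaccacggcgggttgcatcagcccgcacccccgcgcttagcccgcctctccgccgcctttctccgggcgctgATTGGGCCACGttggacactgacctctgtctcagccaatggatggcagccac

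Hsp90b1 holds 2 matches to ERSE, on opposite strands, and the others hold 1 match each. Counted from the gene start, the match in Hspa5 spans positions -65 to -47. Among windows from 250 bases before to 50 after the start, 32 of the 37 measured members had an entry, and 10 of the 32 (31.2%) held ERSE: Hspa5, Hsp90b1, Calr, Canx, Dnajc3, Creld2, Pdia6, Ero1b, Syvn1 and Derl3. Over all genes of the RefSeq table, 37 of 27025 (0.137%) held it, and these 10 members are among them. ERSE-II was found in Dnajb11 and Herpud1 and in 12 genes in all (0.0444%). The XBP1 element TGACGTGG (UPRE), which can share the CCACG bases of the others, was found in Txndc5 and Vcp and in 193 genes in all (0.714%). By role, ERSE was held by 6 of 9 chaperones and partners, 2 of 6 disulfide enzymes, 0 of 5 sensors, 2 of 10 ERAD genes and 0 of 2 translocation genes. ERSE was defined on promoters of this set, so these shares describe the set, and a match is not evidence of binding.

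The values are RMA (robust multi-array averaging) log2 values, so a difference of 1 is a factor of 2. Array medians lay between 3.56 and 3.68, and pairs of arrays correlated across genes at 0.744 to 0.897. As a guide to background, 1105 olfactory receptor genes, taken as mostly silent in kidney, were used, and 95% of them had a mean level below 4.77. Only 9 of the 37 members had a mean above it, namely Hspa5, Hsp90b1, Hyou1, Canx, Creld2, P4hb, Herpud1, Vcp and Sec61a1, with Hsp90b1 at the reference itself, so differences of the other members may be compressed. Of the members, 15 (40.5%) held an identical value in at least 2 arrays, as did 50.6% of all genes. The most were found for Eif2ak3, with 1 value in 5 arrays, and for Hyou1 and Ero1a, with 1 value in 4 arrays.

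The S1 marker Slc34a1, a phosphate transporter, was bright in every array, at 8.31 or more, but only 5 of 12 S1 markers had a mean above the background reference, and Slc5a2 was not one of them. No podocyte, neutrophil or plasma and B cell marker did, and 2 of 6 markers of the later S3 segment, 1 of 7 macrophage, 1 of 6 fibroblast and mural, 1 of 7 endothelial and 1 of 11 distal nephron markers did. LPS replicate 3 stood apart. Its mean over 11 markers of later nephron segments, from the loop to the collecting duct, was 5.34, against 3.88 to 4.15 elsewhere, with Umod at 8.36 and Slc12a1 at 6.79. Its mean over 6 fibroblast and mural markers was 4.92, against 4.04 to 4.41 elsewhere, with Dcn at 6.64. LPS replicate 1 stood apart in the other direction, with a mean over the 37 members of 4.21 against 4.51 to 4.55 in the other LPS arrays. The mean of the plasma and B cell markers, which secretory cells would carry, was 3.76 to 3.90 in control, 3.47 to 4.00 in LPS and 3.54 to 3.85 in LPS/LPS. Member counts are given with and without these arrays further on, as are the members' values that moved most without LPS replicate 3. In such bulk samples, fewer cells of a type and less RNA per cell cannot be told apart.

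No member passed the adjusted test in any comparison. At an unadjusted p, a few members, the chaperone Hspa5 among them, were higher in LPS than in control, and more, chaperones among them, were lower in LPS/LPS than in LPS. In LPS against control, 5 members were higher at an unadjusted limma p under 0.05, namely Hspa5, Dnajc3, Dnajb9, Pdia6 and Herpud1. These are 13.5% of the members, against 3.49% of all genes, and 0 were lower, against 2.95% of all genes. Above the background reference, 2 of 9 members were higher, against 6.03% of genes. For Dnajc3, Dnajb9 and Pdia6 the means of both groups lay below the background reference. When LPS/LPS was set against LPS, 10 members were lower at that p (27.0%, against 4.49% of all genes), and 0 were higher (4.13% of all genes). Of the 10, Dnajc3, Sdf2l1, Pdia3, Pdia6 and Xbp1 had a mean below the background reference. Among genes above it 12.1% were lower. In a fit of those genes alone, 5 of 9 members were lower, against 11.3% of the genes. Against control, 0 members were higher in LPS/LPS (2.62% of all genes) and 0 lower (2.07%), and the groups overlapped for all 37 (0.839% of all genes lay wholly higher and 0.699% wholly lower). In the F-test over the 3 groups, 9 members (24.3%) had an unadjusted p under 0.05, against 6.91% of all genes, and 6 of these were chaperones. After adjustment over all genes, limma called 0 genes in LPS against control, 2 in LPS/LPS against control (0.00902%) and 14 in LPS/LPS against LPS (0.0631%), none of them a member. Each pair of comparisons shares the arrays of 1 group, so their counts are not independent. Because the members were chosen with earlier results of these data known, their shares beside all genes describe the set and are no test.

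**Figure D1:**
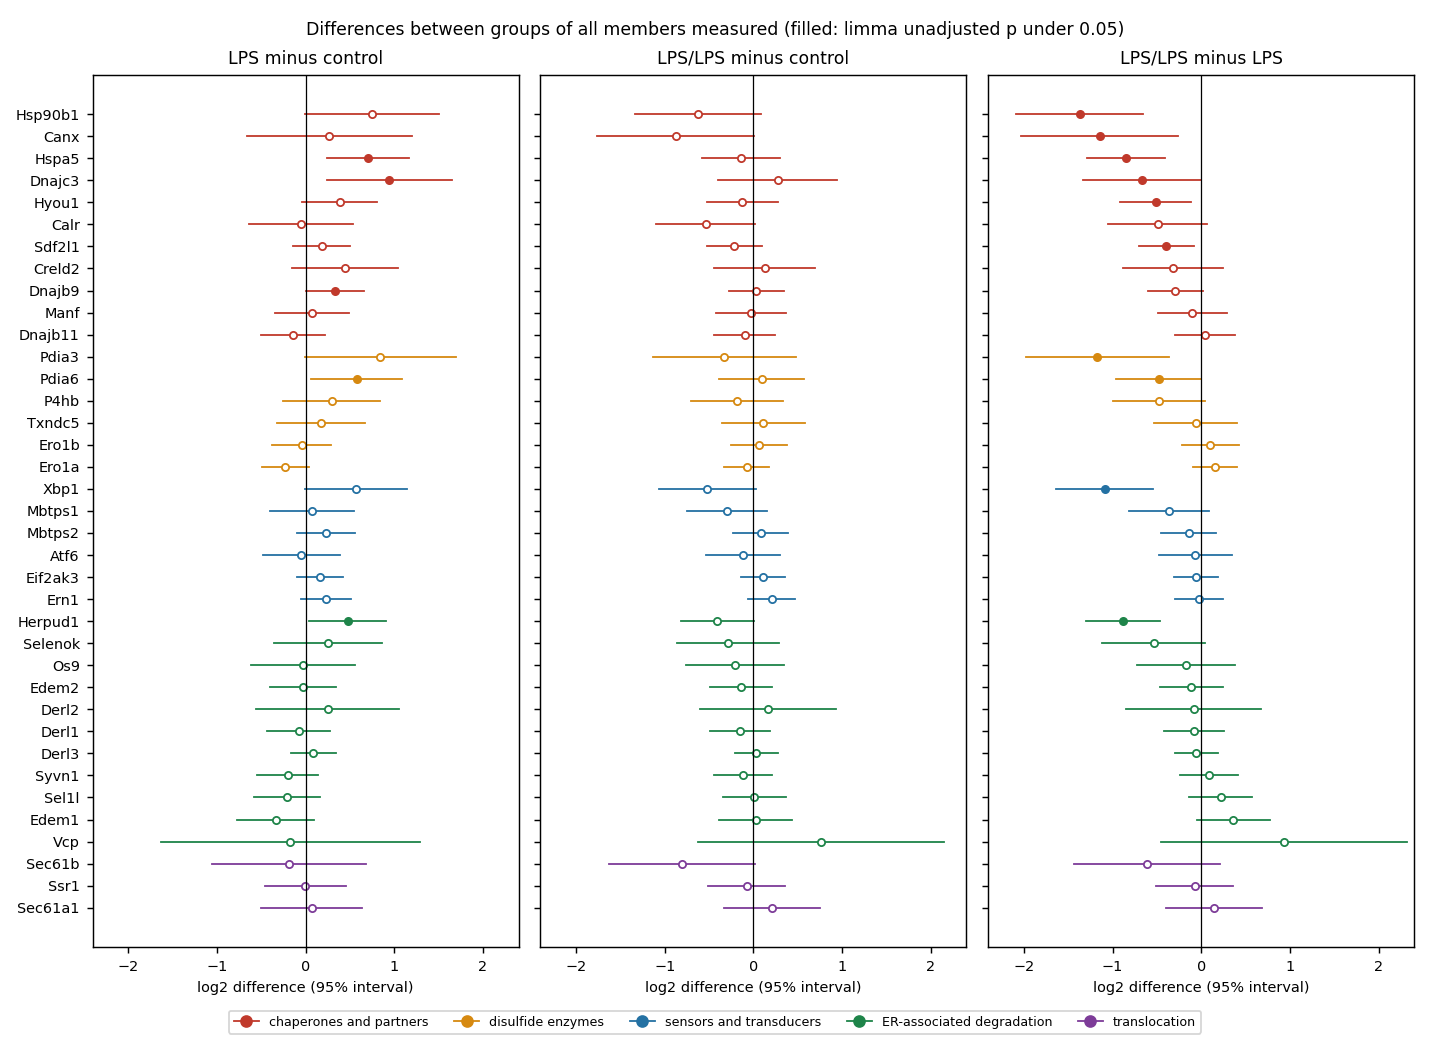
Log2 difference of each of the 37 measured members in the 3 comparisons, with its 95% confidence interval from limma, members in order of role on the vertical axis and the difference on the horizontal. For LPS/LPS against LPS, 29 of the 37 points lie left of 0, with 10 at an unadjusted p under 0.05; in LPS against control 23 lie right of 0.

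Positive differences were found for 23 of the 37 members in LPS against control (47.1% of all genes), 15 in LPS/LPS against control (55.8%) and 8 in LPS/LPS against LPS (59.3%). LPS was the group with the highest mean for 22 of the 37 members, against 29.6% of all genes, and LPS/LPS the lowest for 19, against 25% of all genes. The median difference of the members was 0.16 in LPS against control, -0.10 in LPS/LPS against control and -0.14 in LPS/LPS against LPS, where the medians over all genes were -0.02, 0.03 and 0.05. By role, the LPS/LPS against LPS medians were -0.49 for chaperones, -0.27 for disulfide enzymes, -0.11 for sensors, -0.08 for ERAD genes and -0.07 for translocation genes. The LPS against control medians ran 0.33, 0.23, 0.19, -0.03 and -0.0033 in that order. Of the 10 members lower in LPS/LPS than in LPS, 6 of 11 were chaperones, 2 of 6 disulfide enzymes, 1 of 6 sensors, 1 of 11 ERAD genes and 0 of 3 translocation genes. Differences between these roles were not tested.

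Among the chaperones, Hspa5 encodes BiP, the Hsp70 of the ER lumen that holds the sensors inactive. Hspa5 read 5.71, 5.07, 4.70 and 4.90 in control replicates 1 to 4, 5.43, 6.14, 5.75 and 5.89 in LPS replicates 1 to 4, and 4.98, 4.97, 5.28, 4.83 and 4.70 in LPS/LPS replicates 1 to 5. Every LPS array lay above every LPS/LPS array, and 3 of the 4 LPS arrays lay above all controls, of which control replicate 1 was the highest. The mean was 5.80 ± 0.30 (SD, n = 4) in LPS, 5.09 ± 0.44 (n = 4) in control and 4.95 ± 0.21 (n = 5) in LPS/LPS. LPS was higher than control by 0.71 (SE 0.21, a 1.63-fold difference; limma adjusted p = 0.551). LPS/LPS was lower than LPS, at -0.85 (SE 0.20, a ratio of 0.555; limma adjusted p = 0.200). The difference of LPS/LPS from control, -0.14, was smaller than the spread between control arrays, with a 95% interval from -0.58 to 0.29.

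Hsp90b1 encodes GRP94, the ER member of the Hsp90 family, a chaperone of Toll-like receptors and integrins. In the control arrays Hsp90b1 stood at 5.15, 4.73, 4.33 and 4.92, in the LPS arrays at 4.47, 5.30, 6.43 and 5.93, and in the LPS/LPS arrays at 4.34, 3.60, 4.21, 4.69 and 3.96. LPS replicate 1 lay low in its group, below LPS/LPS replicate 4, so the groups overlapped. The difference of LPS/LPS from LPS was -1.37 (SE 0.33, limma adjusted p = 0.203). This difference passed the adjusted threshold once LPS replicate 1 was left out, at -1.73 (limma adjusted p = 0.0233), and without LPS replicate 3 it was -1.07 (adjusted p = 0.5). In LPS against control the difference was 0.75 (SE 0.35, limma adjusted p = 0.768), and 0.45 without LPS replicate 3.

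Dnajc3 encodes the J-domain protein p58IPK, which feeds unfolded clients to BiP and restrains PERK. The levels of Dnajc3 were 3.98, 3.17, 3.05 and 2.93 with saline, 3.63, 3.69, 5.01 and 4.57 after the single dose and 3.43, 3.52, 4.18, 3.63 and 3.01 after both doses. LPS replicate 3 gave the highest value, and LPS replicates 1 and 2 lay between control replicate 1 and the other controls. The LPS against control difference was 0.94 (SE 0.33, limma adjusted p = 0.640), with both means below the background reference. Between LPS/LPS and LPS the difference was -0.67 (limma adjusted p = 0.58) and -0.41 without LPS replicate 3. Its unadjusted p lay just under 0.05 and was above it in 9 of the 13 fits that left out 1 array.

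The other chaperones and partners varied around this pattern. Canx and Calr encode calnexin and calreticulin, lectins that retain glycoproteins for folding, and Hyou1 is the nucleotide exchange partner of BiP. Canx in LPS/LPS was lower than in LPS by a log2 difference of -1.15 (SE 0.41, limma adjusted p = 0.455), with Calr at -0.49 and Hyou1 at -0.52 (limma adjusted p = 0.626 and 0.458). Sdf2l1, a BiP partner, differed by -0.40 (limma adjusted p = 0.458), and Dnajb9, a J-domain partner of BiP, by -0.30. In LPS against control Dnajb9 was at 0.33, and its unadjusted p was above 0.05 in 9 of the 13 fits that left out 1 array, those without LPS replicate 1 or 3 included. The remaining 3 gave -0.32 (Creld2), -0.10 (Manf) and 0.04 (Dnajb11). So only 1 of 11 chaperones had a positive difference there, against 59.3% of all genes.

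**Figure D2:**
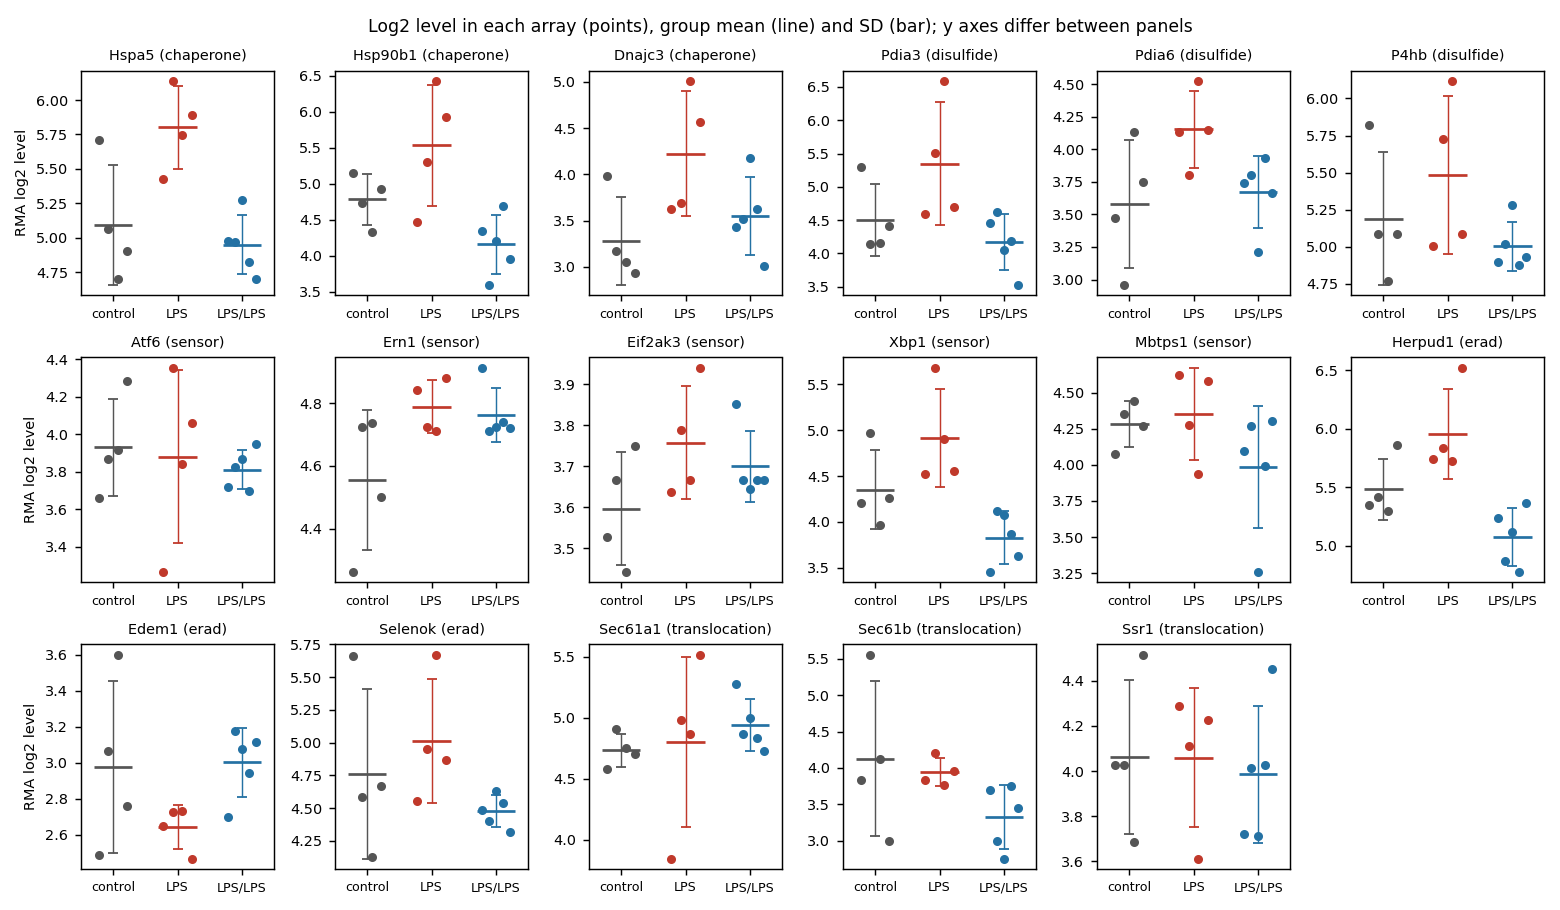
RMA log2 level of the 17 members whose value is given in every array, with 1 point per array, a line at the group mean and a bar of 1 SD, for control (4 arrays), LPS (4) and LPS/LPS (5); the vertical axes differ between panels. For Hspa5, Xbp1, Herpud1 and Sec61b every LPS point lies above every LPS/LPS point, and these 2 groups overlap in the other panels.

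The disulfide enzymes form and rearrange the bonds of folding proteins. Pdia3 encodes ERp57, the isomerase that works with calnexin and calreticulin. For Pdia3, the control arrays gave 5.30, 4.14, 4.16 and 4.41, the LPS arrays 4.59, 5.51, 6.59 and 4.69 and the LPS/LPS arrays 4.46, 4.63, 4.06, 4.19 and 3.53. LPS replicate 3 was the highest of the 13 arrays and LPS/LPS replicate 5 the lowest, and the LPS and LPS/LPS groups overlapped narrowly. The difference of LPS/LPS from LPS was -1.17 (SE 0.38, limma adjusted p = 0.407), and -0.76 without LPS replicate 3. In LPS against control it was 0.84, and 0.43 without that array.

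Pdia6 encodes P5, another isomerase, which also limits IRE1 signalling. Pdia6 read 3.47, 2.96, 4.14 and 3.75 in control replicates 1 to 4, 4.14, 3.80, 4.53 and 4.15 in LPS replicates 1 to 4, and 3.75, 3.80, 3.21, 3.93 and 3.67 in LPS/LPS replicates 1 to 5. The LPS arrays lay between 3.80 and 4.53, with control replicate 3 about as high as LPS replicate 1, and the controls were the most scattered group. LPS was higher than control by 0.57 (SE 0.24, limma adjusted p = 0.720), and by 0.45 without LPS replicate 3, where the unadjusted p was above 0.05. LPS/LPS was lower than LPS at -0.48 (limma adjusted p = 0.58), with an unadjusted p above 0.05 in 9 of the 13 fits that left out 1 array. P4hb encodes protein disulfide isomerase itself. In the control arrays P4hb stood at 5.82, 5.08, 4.77 and 5.08, in the LPS arrays at 5.01, 5.73, 6.12 and 5.08, and in the LPS/LPS arrays at 4.90, 5.02, 5.28, 4.88 and 4.93. The groups overlapped, and LPS/LPS was the narrowest. Its differences were 0.29 in LPS against control and -0.48 in LPS/LPS against LPS (limma adjusted p = 0.871 and 0.605), and 0.08 and -0.27 without LPS replicate 3. The oxidase genes Ero1a and Ero1b, which recharge the isomerases, were not lower in LPS/LPS than in LPS, at 0.15 and 0.10, and Txndc5 was at -0.06.

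Of the sensors, Ern1 encodes IRE1, the kinase and nuclease that splices Xbp1. The levels of Ern1 were 4.26, 4.72, 4.74 and 4.50 with saline, 4.84, 4.72, 4.71 and 4.88 after the single dose and 4.91, 4.71, 4.72, 4.74 and 4.72 after both doses. Control replicate 1 was the lowest of all arrays, and most others stood within a narrow band. LPS/LPS differed from LPS by -0.03, with a 95% interval from -0.29 to 0.24, and LPS from control by 0.23, with an interval from -0.05 to 0.51. Eif2ak3 encodes PERK. For Eif2ak3, the control arrays gave 3.53, 3.67, 3.44 and 3.75, the LPS arrays 3.64, 3.79, 3.67 and 3.94 and the LPS/LPS arrays 3.85, 3.67, 3.65, 3.67 and 3.67. All 3 groups overlapped. Its LPS/LPS against LPS difference was -0.06, with a 95% interval from -0.31 to 0.19.

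Atf6 encodes the third sensor, a transcription factor held in the membrane. Atf6 read 3.66, 3.87, 3.92 and 4.28 in control replicates 1 to 4, 3.27, 4.36, 3.84 and 4.06 in LPS replicates 1 to 4, and 3.72, 3.83, 3.87, 3.70 and 3.95 in LPS/LPS replicates 1 to 5. LPS replicate 1 was the lowest array and LPS replicate 2 the highest, and all groups overlapped. LPS/LPS differed from LPS by -0.07, with an interval from -0.48 to 0.34. None of the 3 sensor genes passed the test, and their intervals bound, but do not exclude, a difference between groups. Transcript levels of sensors do not measure their activation, which takes place on the protein.

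Xbp1 is the transcript that IRE1 splices and is itself a target of ATF6. In the control arrays Xbp1 stood at 4.20, 4.97, 3.97 and 4.25, in the LPS arrays at 4.52, 5.68, 4.90 and 4.55, and in the LPS/LPS arrays at 3.45, 4.12, 4.07, 3.87 and 3.62. All 4 LPS arrays were above all 5 LPS/LPS arrays, and LPS/LPS replicates 1, 4 and 5 were below every control. The mean was 4.92 ± 0.54 (SD, n = 4) in LPS, 4.35 ± 0.43 (n = 4) in control and 3.83 ± 0.29 (n = 5) in LPS/LPS. LPS/LPS was lower than LPS, at -1.09 (SE 0.26, limma adjusted p = 0.177), and the differences against control were 0.57 for LPS and -0.52 for LPS/LPS (limma adjusted p = 0.768 and 0.987). The probe set cannot tell the spliced form from the unspliced form. Mbtps1 encodes the site-1 protease that cleaves ATF6. The levels of Mbtps1 were 4.07, 4.35, 4.44 and 4.27 with saline, 4.62, 4.27, 3.94 and 4.58 after the single dose and 4.10, 4.27, 3.26, 3.99 and 4.30 after both doses. LPS/LPS replicate 3 was lowest, and the difference of LPS/LPS from LPS was -0.37 (limma adjusted p = 0.654). Mbtps2, the site-2 protease, differed by -0.14.

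In ERAD, misfolded proteins are recognised, moved out of the ER and handed to the proteasome. Herpud1 encodes an adaptor of the ubiquitin ligase complex around Syvn1 and is a known target of the response. For Herpud1, the control arrays gave 5.35, 5.42, 5.30 and 5.87, the LPS arrays 5.74, 5.83, 5.73 and 6.52 and the LPS/LPS arrays 5.24, 4.87, 5.12, 4.78 and 5.37. All LPS arrays lay above all LPS/LPS arrays, LPS replicate 4 was far above the rest, and control replicate 4 overlapped with LPS. The mean was 5.96 ± 0.38 (SD, n = 4) in LPS, 5.48 ± 0.26 (n = 4) in control and 5.07 ± 0.25 (n = 5) in LPS/LPS. The LPS/LPS against LPS difference, -0.88 (SE 0.19, a ratio of 0.543; limma adjusted p = 0.145), had the lowest adjusted p of any member in any comparison. LPS was higher than control by 0.47 (limma adjusted p = 0.725) and by 0.28 without LPS replicate 4, where the unadjusted p was above 0.05. LPS/LPS was at -0.41 against control (adjusted p = 0.987).

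Edem1 encodes a lectin that marks misfolded glycoproteins for disposal. Edem1 read 2.49, 3.06, 3.60 and 2.76 in control replicates 1 to 4, 2.65, 2.73, 2.73 and 2.47 in LPS replicates 1 to 4, and 2.70, 3.18, 3.08, 2.94 and 3.11 in LPS/LPS replicates 1 to 5. It ran the other way from Herpud1, with LPS below control by a difference of -0.33 and LPS/LPS above LPS by 0.36 (SE 0.19, limma adjusted p = 0.633), and all groups overlapped. Edem1 lay below the background reference in every array, at 2.47 to 3.60. Selenok encodes selenoprotein K, a membrane partner of the derlins. The levels of Selenok were 5.66, 4.59, 4.13 and 4.67 with saline, 4.55, 4.95, 5.67 and 4.87 after the single dose and 4.49, 4.40, 4.63, 4.54 and 4.31 after both doses. Control replicate 1 and LPS replicate 3 stood well above the others, and LPS/LPS differed from LPS by -0.54 (limma adjusted p = 0.602), and by -0.32 without LPS replicate 3.

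In LPS against control, where Herpud1 was higher, 4 of 11 ERAD genes were positive, against 47.1% of all genes. In LPS/LPS against LPS, where Herpud1 was lower, 4 of 11 were positive, against 59.3% of all genes. The ERAD median there was -0.08. Vcp encodes p97, the ATPase that extracts proteins from the membrane, and spread from 5.79 to 9.34 within these arrays, so its difference of 0.93 (SE 0.65, limma adjusted p = 0.718) lay within that spread. Derl2, a derlin, stood at 5.41 in LPS replicate 2 and at 4.20 or below elsewhere. Sel1l, Syvn1, Edem2, Derl1, Derl3 and Os9 differed between LPS/LPS and LPS by -0.18 to 0.22.

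Translocation genes move new chains into the ER. Sec61a1 and Sec61b encode subunits of the channel and Ssr1 one of its associated TRAP complex. For Sec61b, the control arrays gave 3.83, 5.56, 4.13 and 2.99, the LPS arrays 3.83, 4.20, 3.77 and 3.96 and the LPS/LPS arrays 3.69, 2.99, 2.75, 3.75 and 3.45. LPS/LPS lay below every LPS array only narrowly, with 3.75 as its highest value and 3.77 as the lowest in LPS. Control replicates 2 and 4 were far apart. The mean of Sec61b was below the background reference in each group. Its LPS/LPS against LPS difference was -0.62 (SE 0.38, limma unadjusted p = 0.13, adjusted p = 0.684). Sec61a1 read 4.58, 4.91, 4.75 and 4.70 in control replicates 1 to 4, 3.84, 4.98, 4.87 and 5.52 in LPS replicates 1 to 4, and 5.28, 4.87, 5.00, 4.83 and 4.73 in LPS/LPS replicates 1 to 5. In the control arrays Ssr1 stood at 4.03, 4.03, 3.68 and 4.52, in the LPS arrays at 4.29, 4.11, 3.61 and 4.23, and in the LPS/LPS arrays at 3.72, 4.01, 3.71, 4.03 and 4.45. The groups overlapped for both, with LPS/LPS against LPS differences of 0.14 and -0.07. Groups without overlap, LPS/LPS below LPS, were thus found for Hspa5, Xbp1, Herpud1 and Sec61b, 4 of 37 members (10.8%, against 1.3% of all genes), and for 0 members with LPS/LPS above LPS (1.1%). No member separated the groups in LPS against control, against 1.55% of all genes higher and 1.6% lower.

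**Figure D3:**
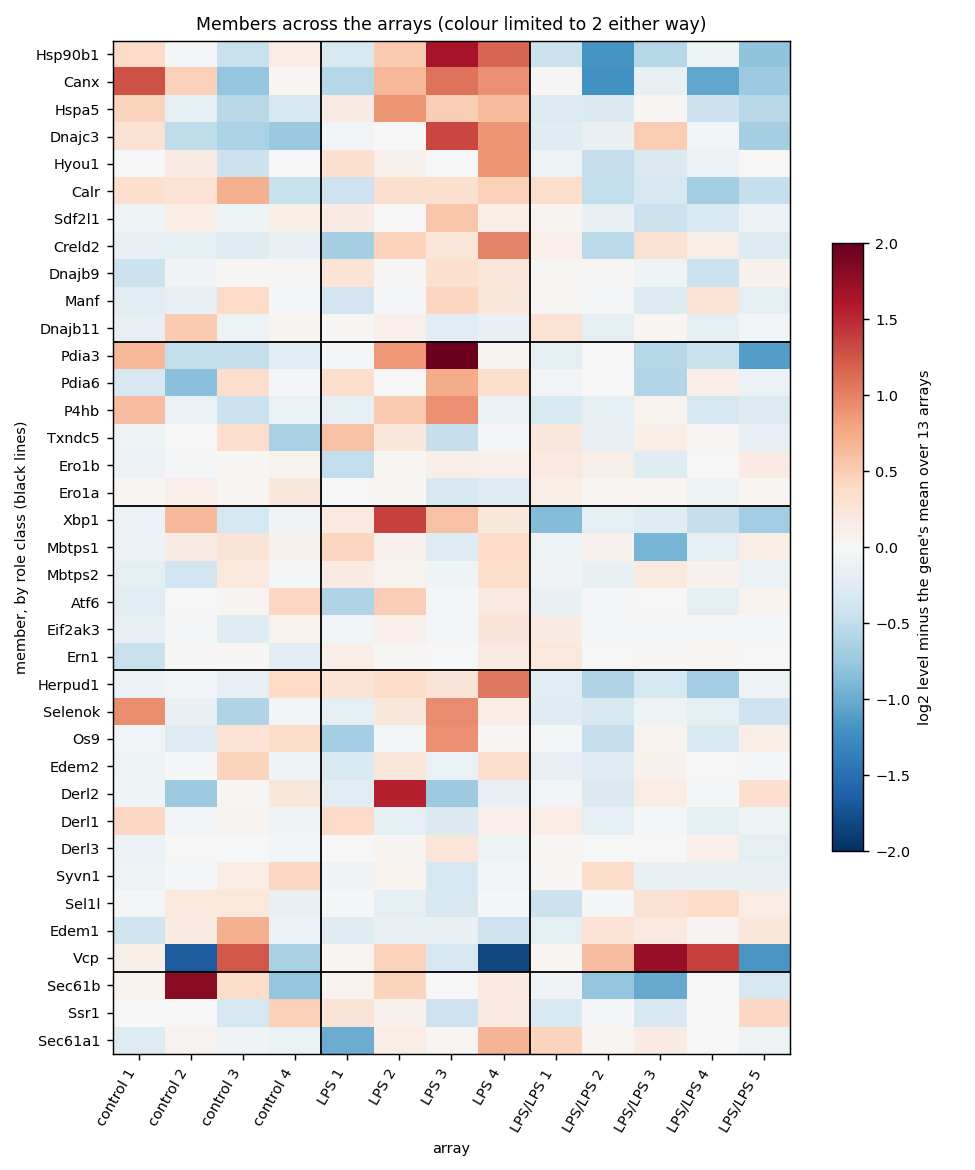
Level of each of the 37 measured members in each of the 13 arrays, shown as the log2 difference from that gene's mean over all arrays, with members grouped by role, arrays by group and the colour limited to 2 either way. The chaperone block is highest in LPS replicates 3 and 4, and LPS replicate 1 does not share it.

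The LPS arrays differed among themselves. The mean level of the 11 chaperones was 4.20, 4.60, 4.89 and 4.91 in LPS replicates 1 to 4, against 4.13 to 4.48 in control and 3.90 to 4.31 in LPS/LPS, so LPS replicate 1 lay within both other groups. LPS replicate 3 held the highest value of 11 of the 37 members and the lowest of 6, and LPS replicate 1 the lowest of 7. At an unadjusted limma p under 0.05, 8 members were higher in LPS than control without LPS replicate 1 (4.75% of all genes in that fit), and 4 without LPS replicate 3 (3.38%). For LPS/LPS against LPS the counts of lower members were 13 (5.73% of all genes) and 7 (3.49%). With both left out, 8 members were higher in LPS than control (4.62%) and 10 lower in LPS/LPS than LPS (4.86%). Without LPS replicate 3, the LPS/LPS against LPS difference was -0.87 for Hspa5, -1.09 for Xbp1 and -0.96 for Herpud1, and each kept an unadjusted p under 0.05. Canx (-0.96), Sdf2l1 (-0.28), Dnajc3 (-0.41) and Pdia6 (-0.36) had an unadjusted p above 0.05 there. Hyou1 was at -0.33 without LPS replicate 4, with a p above 0.05.

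Levels of S1 markers varied beside those of the chaperones. The mean of the 12 S1 markers was 5.73, 5.27, 5.00 and 5.53 in control, 4.50, 5.06, 6.00 and 5.65 in LPS, and 5.04, 4.50, 4.35, 4.45 and 5.02 in LPS/LPS. Compared with LPS, 11 of the 12 S1 markers were lower in LPS/LPS (median difference -0.48), and in LPS/LPS against control all 12 were (median -0.53), whereas the chaperones were at -0.13 there. Over all genes, 59.3% were positive in the first of these comparisons and 55.8% in the second. In LPS against control, 7 of the 12 S1 markers were positive (47.1% of all genes), with a median of 0.07. At an unadjusted limma p under 0.05, 2 of the 12 were lower there (2.95% of all genes) and 0 higher (3.49%). Wholly below control lay 2 of the 12 (1.6% of all genes). Slc34a1 was among these, at 10.91 or less in LPS and above that in every control array. With the S1 mean of each array as a covariate, an adjustment chosen after seeing the data, 4 members remained lower in LPS/LPS than LPS at an unadjusted limma p under 0.05, against 3.85% of all genes in that fit, namely Hspa5 (-0.73), Hsp90b1 (-0.77), Xbp1 (-1.19) and Herpud1 (-0.71). The chaperone median became -0.27, and Canx was -0.44. In LPS against control 6 members were higher at that p with the covariate (4.58% of all genes), with Hsp90b1 and Pdia3 added and Dnajb9 lost. All 6 markers of the S3 segment were also lower in LPS/LPS than in LPS, where 59.3% of all genes were positive. For Atp11a and Cyp7b1 the unadjusted p was under 0.05 (4.49% of all genes lower) and the groups did not overlap (1.3% wholly lower). Cyp7b1 lay below the background reference in every array, at 2.98 to 3.58. In LPS against control 3 of the 6 were positive (47.1% of all genes), with a median of -0.01, against 0.33 for the chaperones. The mean of the S3 markers ranged from 4.16 to 5.08 in control, 4.02 to 5.12 in LPS and 3.62 to 4.33 in LPS/LPS. The part of the S3 markers in the members' differences was not tested, and that of the S1 markers only by the covariate.

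**Figure D4:**
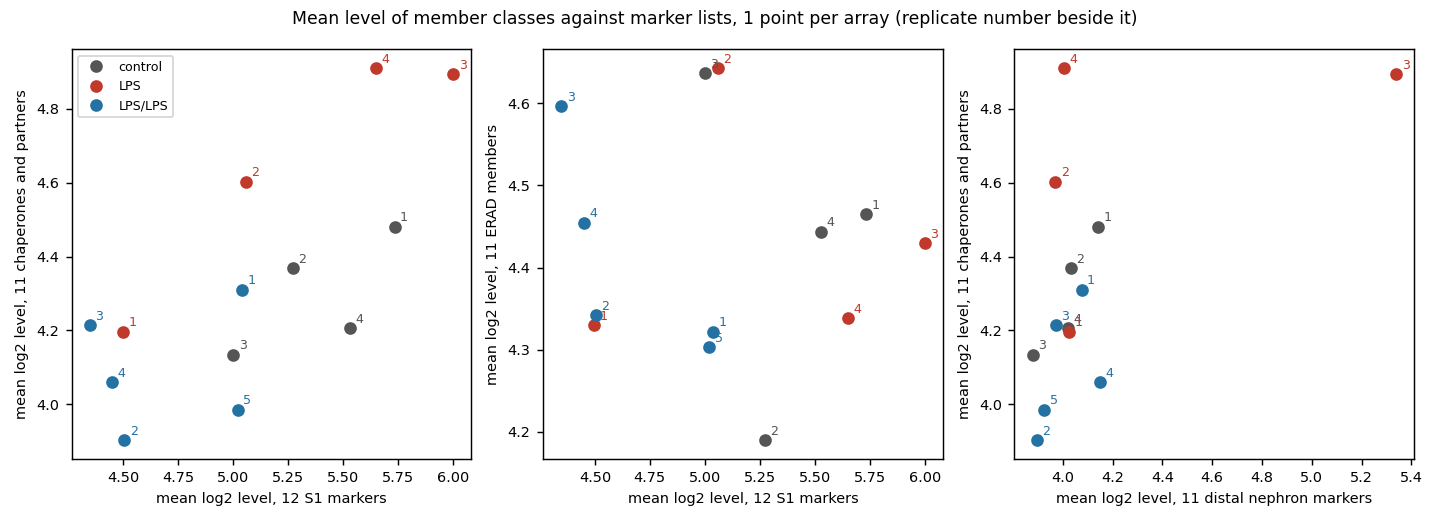
Mean log2 level per array, 1 point per array with its replicate number: the 11 chaperones and partners against the 12 S1 markers (left), the 11 ERAD members against the S1 markers (middle), and the chaperones against 11 distal nephron markers (right). The distal nephron mean is 5.34 in LPS replicate 3 and 3.88 to 4.15 elsewhere, and the chaperone mean reaches 4.91 in LPS and 4.31 in LPS/LPS.

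Arrays also differed in the spread of their log2 values. Among the 7 wider arrays, which hold LPS replicates 2 to 4, LPS/LPS differed from LPS by -1.09 for Hspa5, -1.51 for Xbp1, -0.72 for Herpud1, -1.74 for Hsp90b1 and -1.24 for Canx. The 6 narrower arrays hold LPS replicate 1 alone of its group, so array spread and that replicate cannot be told apart there; against it the 3 LPS/LPS arrays differed by -0.40, -0.50, -0.82, -0.31 and -0.23 in that order.

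Members with ERSE in their promoter were set beside those without. The 10 members with ERSE had a median of 0.36 in LPS against control, with 3 higher at an unadjusted limma p under 0.05, and -0.49 in LPS/LPS against LPS, with 5 lower. The 22 without had medians of 0.17 and -0.13, with 2 and 4 members at that p. Over all genes, 3.49% were higher in the first comparison and 4.49% lower in the second. Individual members crossed this split, since Xbp1 and Pdia3 hold no ERSE in this window and Ero1b, Syvn1 and Derl3 hold one. The split overlaps with role, as 6 of the 10 are chaperones, and it was not tested.

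**Figure D5:**
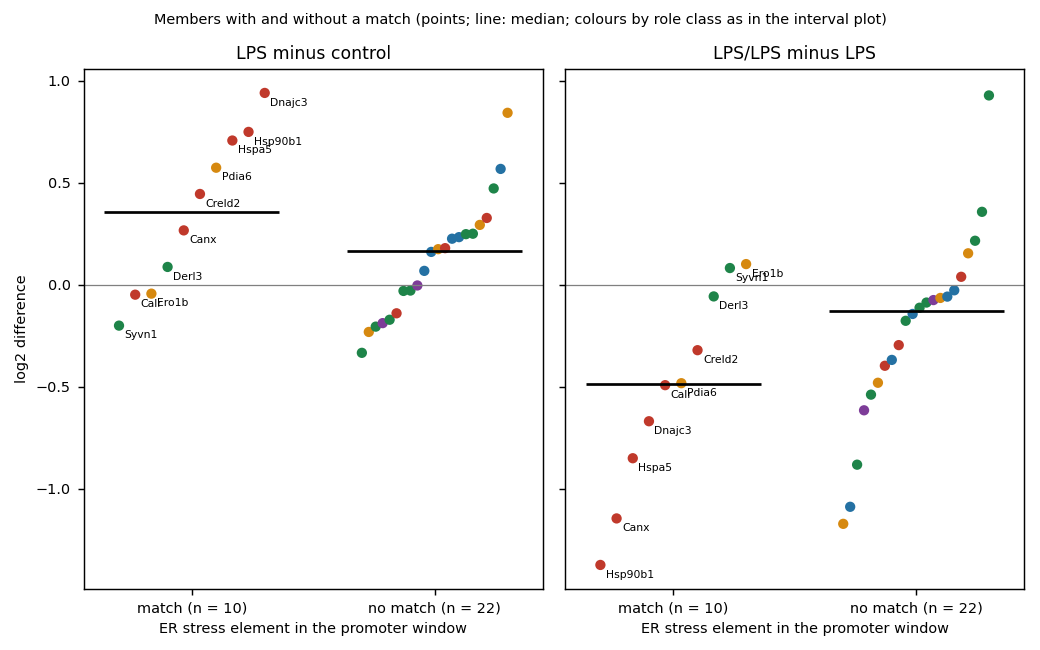
Log2 difference (vertical axis) of the 32 members with a promoter window in LPS against control (left) and LPS/LPS against LPS (right), split by the presence of ERSE (10 with, 22 without), with 1 point per gene coloured by role and a line at the median. In LPS/LPS against LPS the medians are -0.49 with ERSE and -0.13 without, and the ranges overlap.

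The wider pathway was read from lists of genes beyond the members, also chosen with earlier results of these data known. None of the lists held a gene past the adjusted threshold. Glycan transfer and translocation genes, 24 measured, had a median of 0.24 in LPS against control and -0.40 in LPS/LPS against LPS, with 5 of 24 lower at an unadjusted p under 0.05 (20.8%, against 4.49% of all genes and 12.1% of those above the background reference). They were Rpn1, Ganab, Spcs1, Srpr and Ssr2. Rpn1, a subunit of the oligosaccharyltransferase, differed by -0.79 (SE 0.19, limma adjusted p = 0.2), and Ssr2, of the TRAP complex, was 1.04 higher in LPS than control (limma adjusted p = 0.725). Other folding enzymes, 18 measured, had medians of 0.13 and -0.14, and only Fkbp2, a prolyl isomerase, was lower at that p, at -1.26 (SE 0.27, limma adjusted p = 0.128). Other ERAD genes, 16 measured, had medians of 0.15 and -0.13. Ube2j1, a ubiquitin-conjugating enzyme, was 0.64 higher in LPS than control (limma adjusted p = 0.719), and Aup1 was lower in LPS/LPS than LPS at -0.59 (limma adjusted p = 0.384). In LPS/LPS against control, 1 of the 18 folding enzymes and 1 of these 16 ERAD genes were lower at an unadjusted p under 0.05 (2.07% of all genes). In either list 0 were higher there (2.62%).

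Downstream of PERK, 14 effectors of the integrated stress response had medians of 0.03 and -0.04. Positive differences were found for 10 of 14 in LPS against control (47.1% of all genes) and for 5 of 14 in LPS/LPS against LPS (59.3%). Atf4 and Ddit3 were the 2 with an unadjusted p under 0.05 in each. Over all genes, 3.49% were higher in the first comparison and 4.49% lower in the second at that p. Atf4, the factor whose translation PERK favours, was 1.17 higher in LPS than control (limma adjusted p = 0.725). It was at -1.34 in LPS/LPS against LPS (SE 0.47, limma adjusted p = 0.449), with groups that did not overlap (1.3% of all genes lay wholly lower). Ddit3, which encodes CHOP, differed by 0.61 and -0.65 (limma adjusted p = 0.725 and 0.481). Sesn2 had the lowest p of this list in LPS/LPS against control, at -0.22. The 11 other transducers had medians of 0.10 and 0.04. Tmbim6 was at -0.68 in LPS/LPS against LPS (limma adjusted p = 0.58) and Creb3l4 at 0.39 in LPS/LPS against control, and Creb3l2 at -0.27 in LPS against control.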

How the data were processed

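Expression was measured on Affymetrix whole-transcript arrays. RNA was purified with PicoPure and biotin-labelled with WT Pico reagents, per the labels' protocols. The deposited values are log2 levels of probe sets, made by the authors with RMA and Partek 6.6, per the submitters' processing notes. How background and normalization were set is not given in the sources used. RMA can compress differences of dim genes. The table held 41345 probe sets for 13 arrays. Probe sets with 1 gene symbol in the platform annotation were used, the brightest per gene, which left 22180 genes.

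The 3 comparisons and an F-test came from a single limma model of the 3 groups (limma 3.58.1, R 4.3.3; lmFit, eBayes) without covariates. Adjusted p-values are Benjamini-Hochberg values over all genes, called under 0.05. The fit was tested on simulated data with independent normal noise, so that test checks the calculation and not how these arrays vary. The number of arrays limits the precision.

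The members and gene lists were chosen with earlier results of these data known. Values in every array are given for Hspa5, Hsp90b1, Xbp1, Atf6, Ern1 and Eif2ak3 and, per role, for the 3 members with the lowest F-test p. For further lists, the member with the lowest p in a comparison is named, though not for every list and comparison. Values of Canx, Calr, Hyou1 and other members fall outside that rule. The fits with the S1 mean as a covariate and without LPS replicates 1 and 3 were chosen after seeing the data, as was the olfactory receptor reference. Promoter windows came from RefSeq on GRCm38.p6.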

Additional observations from a re-analysis of the deposited data

Results flagged for a closer look

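In 54 groups of arrays tested, 4 held an array far from the others of its group by Dixon's test, where chance alone gives about 1 in 20. Ern1 stood at 4.91 in LPS/LPS replicate 1 against 4.71 to 4.74 in the other LPS/LPS arrays. Eif2ak3 stood at 3.85 in the same array against 3.65 to 3.67. Both sets of others hold repeated values. Herpud1 stood at 6.52 in LPS replicate 4 against 5.73 to 5.83 in the other LPS arrays; without that array its LPS/LPS against LPS difference was -0.69 (limma adjusted p = 0.307), and its LPS against control difference was 0.28 in place of 0.47. The mean of the 37 members was 4.21 in LPS replicate 1 against 4.51 to 4.55 in the other LPS arrays.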

How the results depend on the processing

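No member passed the adjusted limma threshold under any setting run except Hsp90b1 in LPS/LPS against LPS without LPS replicate 1. Sec61a1 differed by -0.98 in LPS against control within the narrow arrays, and was higher without LPS replicates 1 and 3 (0.51, unadjusted limma p under 0.05). Atf6 differed by 0.53 in LPS/LPS against LPS within the narrow arrays, and was lower without those replicates (-0.40, unadjusted limma p under 0.05). The narrow arrays hold LPS replicate 1 alone of its group, so values within them compare that array, assumed to vary like the others, and say nothing more of array spread. Differences of members in LPS against control there ran from -1.01 (Sec61b) to 0.59 (Pdia6). Counts of members past a p are not given for comparisons with LPS in the narrow arrays. The counts and medians named next moved; the cause was not tested. At an unadjusted p under 0.05, 5 members were higher in LPS than control (3.49% of all genes), but 3 with only both compared groups in the fit (3.02%). They numbered 2 of 9 above the background reference (5.53% of the genes there) and 8 without LPS replicates 1 and 3 (4.62%). Members lower numbered 0 (2.95%), but 1 without moderation (3.05%). The median over all members was 0.079 within the narrow arrays and 0.39 above the reference. Chaperones were at -0.055 within the narrow arrays and 0.53 without LPS replicates 1 and 3, sensors at 0.10 within the narrow arrays, and translocation genes at 0.48 in the wide arrays, -0.98 in the narrow ones and 0.11 without LPS replicates 1 and 3.

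In LPS/LPS against control 0 members were lower (2.07% of all genes), but 3 with array weights (2.39%) and 4 with both groups only (2.47%). There were 3 lower with spread class as a block (3.2%), 2 in wide arrays (2.37%) and 4 after quantile normalization (2.74%). Centring gave 3 lower (2.8%), and leaving out LPS replicates 1 and 3 gave 4 (2.48%). In wide arrays 1 was higher (2.9%). Within the narrow arrays 3 were lower (3.29%) and 1 higher (2.57%). Translocation medians were 0.16 in wide arrays, 0.062 in narrow ones and 0.075 with the mean of all probe sets; with the S1 covariate all members were at -0.030 and disulfide enzymes at 0.15. Between LPS/LPS and LPS, 1 member was higher with both groups only (3.6% of all genes). Lower were 5 of 9 above the reference (11.3% of the genes there) and 4 with the S1 covariate (3.85% of all genes). The median over all members was -0.23 with array weights, -0.25 in wide arrays, -0.52 above the reference and -0.30 without LPS replicates 1 and 3. Chaperones were at -0.23 in narrow arrays, -0.85 above the reference and -0.27 with the S1 covariate. ERAD genes were at 0.15 in narrow arrays, sensors at -0.32 without LPS replicates 1 and 3, and translocation genes at -0.37 in narrow arrays and -0.31 without those replicates.

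Leaving out each array in turn gave, in LPS against control, 4 to 8 members higher (2.78% to 4.75% of all genes) and 0 to 1 lower (2.01% to 4.26%). The medians were 0.081 to 0.21 over all members, -0.12 to 0.086 for ERAD and -0.17 to 0.13 for translocation. For LPS/LPS against control, 0 to 4 were lower (1.74% to 2.35%), with ERAD medians of -0.17 to -0.012 and translocation medians of -0.20 to 0.073. Against LPS, LPS/LPS gave 0 to 1 member past the adjusted threshold, 0 to 2 higher (2.67% to 5.5%) and 7 to 13 lower (3.49% to 5.73%). The medians there were -0.27 to -0.10 over all members, -0.20 to -0.038 for sensors and -0.22 to -0.0068 for translocation.

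Replicate numbers are shared by the groups. In their deviations from the group means, 3 of 12 same-numbered pairs of arrays correlated above 0.1, with a mean r of -0.03. Of 44 pairs with different numbers 15 did, with a mean r of 0.008. This gave no sign of pairing by number but cannot exclude it, as r among the latter ran from -0.33 to 0.54. With the replicate block, 2 members were lower in LPS/LPS than control (1.7% of all genes). Between LPS/LPS and LPS, 1 was higher (4.59%) and 7, not 10, were lower (3.9%), with Canx, Dnajc3 and Pdia6 lost. The translocation medians in these comparisons were -0.20 and -0.19. Medians of role classes with under 3 members above the reference were not computed.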
